A study of Mus musculus with 12 samples.

Results

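The hormone-responsive and luminal programme of the mammary gland was examined through 9 genes, measured in laser-captured stroma and epithelium of mouse mammary tumours with and without the retinoic acid receptor gene Rarb. They were the hormone receptor genes Esr1, Pgr and Prlr, the transcription factor genes Foxa1, Gata3, Elf5, Stat5a and Stat5b, and Tnfsf11, which encodes the ligand RANKL. Members were all non-control probes whose accession mapped to these symbols, without use of any measured value, and gave 14 probes out of 55681 on the array. The 12 arrays fell into 4 groups of 3: stroma of Rarb -/- tumours (KO), stroma of Rarb +/+ tumours (WT), epithelium of KO tumours and epithelium of WT tumours. All came from FVB mice whose tumours were driven by the MMTV-wnt1 transgene, in which the mouse mammary tumour virus promoter expresses Wnt1 in mammary epithelium, so the WT tumours carry it as well. KO replicates were numbered 1, 3 and 4 and WT replicates 1, 2 and 3, and the same numbers in both compartments tie the stroma and epithelium of 6 tumours. The labels used here give neither the age of the animals nor whether each tumour came from its own mouse, and where it did not, the p-values measure a spread that is partly technical. Cy3-labelled tumour RNA was hybridised against Cy5-labelled Universal Mouse Reference RNA, a commercial pool, and each value below is a log2 ratio of sample over reference, so a value of 1 is a 2-fold higher signal than in the pool.

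Oestrogen acts on hormone-sensing luminal cells through the receptor encoded by Esr1, which induces Pgr, the progesterone receptor gene, and FOXA1 opens chromatin for the oestrogen receptor. Progesterone signals onward through RANKL, a paracrine ligand made by these cells. Prolactin binds the receptor encoded by Prlr, which activates the kinase JAK2 and the transcription factors STAT5A and STAT5B, and ELF5, a factor of the ETS family, drives alveolar secretory cell fate downstream of it. GATA3 maintains luminal cells in general.

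A probe was called well above background on an array from the scanner's own flag, and was tested where this held in Cy3 on at least 3 of 12 arrays, which kept 27292 probes. Of the 14 member probes 9 passed, for 7 genes. Pgr probe 1 was well above background on 11 arrays, Prlr probe 1, Gata3, Elf5, Stat5a and both Stat5b probes on all 12, Prlr probe 2 on 8 and Foxa1 on 7. The 3 Esr1 probes, Pgr probe 2 and the Tnfsf11 probe did not pass, so neither the oestrogen receptor gene nor the RANKL gene was tested. Probes of a gene are numbered from the brightest down, and since Stat5a and Stat5b are neighbouring, highly similar genes on chromosome 11 and the probe sequences were not used here, signal shared between them could not be measured.

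The deposited files hold no probe sequences, so promoter sequences from RefSeq (build GRCm38.p6) are given for the transcription factor and receptor genes on which the comparisons below turn. All 9 genes had an entry, with 15 start sites between them. Each sequence below is the 250 bases before a start site, 5′ to 3′ on the gene's strand, and capitals mark matches to one of the motifs searched. The Gata3 window is chr2:9878601-9878850 (minus strand), the Elf5 window of its first listed start is chr2:103411848-103412097 (plus strand), the Prlr window of its second listed start is chr15:10223656-10223905 (plus strand) and the Foxa1 window is chr12:57546112-57546361 (minus strand).
Gata3: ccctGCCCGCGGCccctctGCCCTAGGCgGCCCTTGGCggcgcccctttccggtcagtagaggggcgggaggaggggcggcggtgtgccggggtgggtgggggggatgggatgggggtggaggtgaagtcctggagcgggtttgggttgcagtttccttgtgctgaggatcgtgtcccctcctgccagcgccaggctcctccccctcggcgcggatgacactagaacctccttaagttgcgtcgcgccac
Elf5: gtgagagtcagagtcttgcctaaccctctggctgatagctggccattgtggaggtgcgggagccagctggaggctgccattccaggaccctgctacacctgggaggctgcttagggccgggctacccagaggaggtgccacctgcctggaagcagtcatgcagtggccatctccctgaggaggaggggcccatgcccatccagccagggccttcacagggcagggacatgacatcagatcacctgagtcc
Prlr: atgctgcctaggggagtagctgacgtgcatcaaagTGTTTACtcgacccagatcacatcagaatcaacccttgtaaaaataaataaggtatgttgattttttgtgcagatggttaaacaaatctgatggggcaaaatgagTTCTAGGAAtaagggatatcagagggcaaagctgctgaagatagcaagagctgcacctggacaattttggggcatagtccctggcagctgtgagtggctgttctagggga
Foxa1: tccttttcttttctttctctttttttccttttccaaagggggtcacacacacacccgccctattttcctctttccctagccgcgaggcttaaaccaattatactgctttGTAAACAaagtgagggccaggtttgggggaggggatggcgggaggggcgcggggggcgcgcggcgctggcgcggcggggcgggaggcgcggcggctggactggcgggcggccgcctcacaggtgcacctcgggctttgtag

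The letters searched, on both strands of the 300 bases from 250 before to 50 after each start, were TTCNNNGAA for STAT5 (the GAS element), GCCNNNGGC for AP-2 factors, the letters AGATAA for GATA factors, TGTTTAC for forkhead (FOX) factors and AGGAAG for ETS factors. Gata3 held 3 AP-2 matches, starting 246, 231 and 221 bases before the start, as do 0.444% of all 32851 promoters, while 16.59% hold at least 1. The Prlr window held a FOX match 215 bases before the start and a STAT5 match 110 bases before it, a pairing found in 0.335% of promoters. The other Prlr windows held ETS letters only. This pairing and the 3 AP-2 matches were counted because these windows hold them, so their shares do not measure how unusual the windows are. Foxa1 held a FOX match 141 bases before its start, and 3.65% of promoters hold one. No motif matched in either Elf5 window. ETS letters were in 9 of the 15 member windows and in 35.35% of all promoters, the STAT5 element was in 2 (Esr1 and Prlr) and in 8.3%, and AP-2 letters were in 2 (Esr1 and Gata3). None of the 15 held the GATA letters, which 11.18% of promoters hold. A match is a description of letters and not a bound site.

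The compartments did not separate equally in the 2 genotypes by their marker genes. Over 9 of 10 luminal markers (keratins, claudins, Epcam, Cdh1 and Spint1) the mean log2 ratio was 0.22 to 1.04 on the KO stroma arrays, 1.72 to 2.60 on the WT stroma arrays, 2.29 to 2.87 in KO epithelium and 2.08 to 2.70 in WT epithelium. Epcam was not well above background on any KO stroma array, whereas in WT stroma this held only for Cldn4. The mean over 11 fibroblast markers was 2.86 to 3.22 in KO stroma, 0.17 to 1.57 in WT stroma, -2.91 to -0.38 in KO epithelium and -1.84 to 1.03 in WT epithelium. Over 7 macrophage markers it was 3.98 to 4.45 in KO stroma and 1.28 to 2.90 in WT stroma. Wnt1 probe 1, for the gene that the transgene expresses, gave 3.01, 3.80 and 2.90 in KO stroma, 7.20, 6.60 and 6.53 in WT stroma, 7.05, 7.16 and 7.57 in KO epithelium and 7.67, 7.24 and 7.14 in WT epithelium. Luminal markers and Wnt1 were thus almost as high on the WT stroma arrays as in epithelium. As a check of genotype, the brighter Rarb probe gave 1.83, 2.09 and 0.57 in KO stroma against -0.01, -0.29 and 1.37 in WT stroma, and -1.13, 1.36 and 0.50 in KO epithelium against -0.76, 0.85 and 0.77 in WT epithelium, and the other Rarb probe passed the background flag on 0 of 12. The groups overlap, and as the labels do not say which part of Rarb is deleted, neither probe checks them. The share of probes well above background was 36.0% to 46.3% per array, and no non-control spot of any array was saturated in Cy3.

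**Figure D1:**
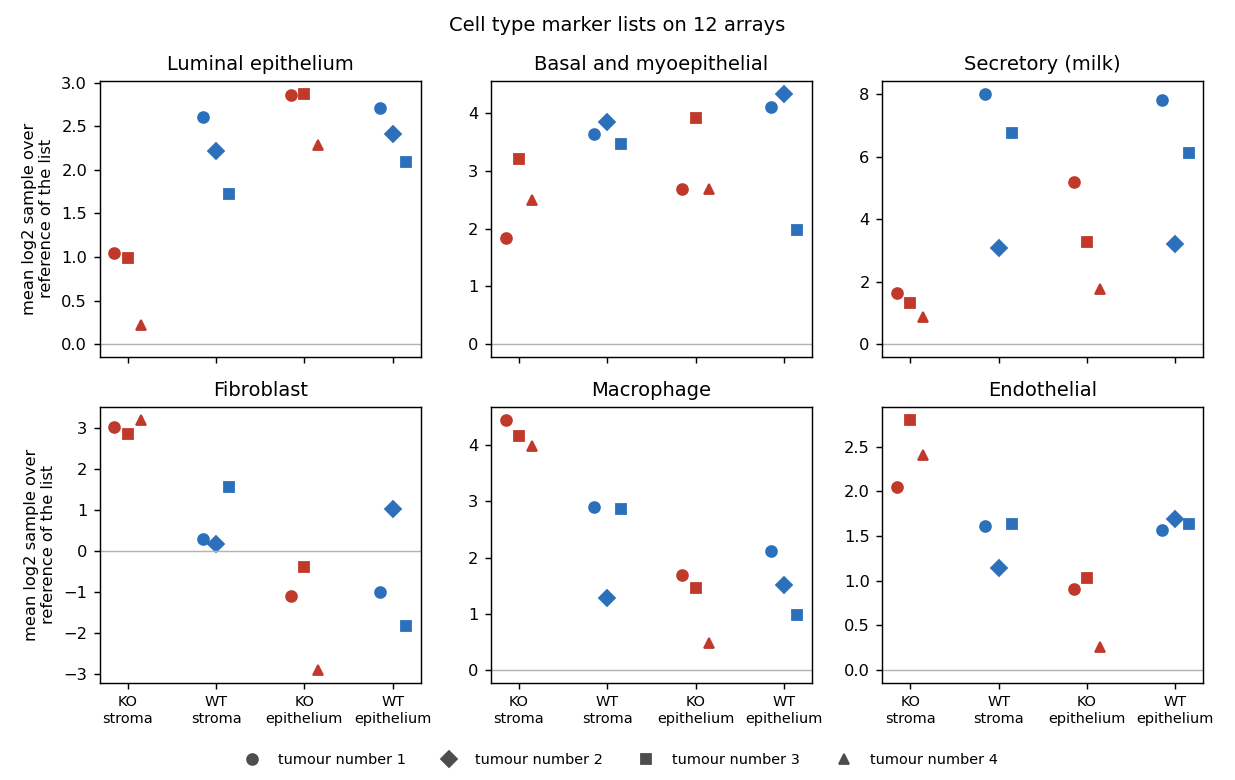
Mean log2 ratio of tumour sample over reference RNA for 6 lists of cell type markers, with 1 point per array, shape showing the tumour number and colour the genotype. Luminal marker means lie between 0.22 and 1.04 in KO stroma and between 1.72 and 2.60 in WT stroma, where they reach the range of the epithelia.

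Among the hormone receptors, Esr1 was near the limit of measurement. Its best probe, Esr1 probe 2, is spotted 10 times per array, and was well above background in 9 of 10 spots on KO epithelium array 1 and in 10 of 10 on KO epithelium array 4, but on no other array. Its log2 ratios were 0.61, 0.13 and 0.70 in KO epithelium replicates 1, 3 and 4, against 0.20, 0.19 and 0.44 in WT epithelium replicates 1, 2 and 3. In stroma they were 0.05, 0.25 and 0.08 in KO and 0.20, -0.08 and 0.01 in WT. The KO and WT ranges overlapped in both compartments. Without the filter the KO minus WT difference in epithelium was 0.20 (SE 0.16, adjusted p = 0.786). KO epithelium replicate 3 lay below all 3 WT epithelium arrays, so the KO arrays did not stand apart. The other Esr1 probes passed the background flag on 0 of 12 arrays.

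Pgr, whose product mediates the response to progesterone, had its highest mean in KO epithelium. Pgr probe 1 gave 2.60, 4.59 and 2.83 in KO epithelium and 2.23, 3.39 and 1.05 in WT epithelium, ranges that overlap. In stroma it gave 0.42, 1.57 and 0.98 in KO, the first of these not well above background, and 1.49, 1.59 and 1.24 in WT. Group means fell in the order KO epithelium (3.34 ± 1.09), WT epithelium (2.22 ± 1.17), WT stroma (1.44 ± 0.18) and KO stroma (0.99 ± 0.58; SD, n = 3 each), and neighbours in this order lay within their spread. Pgr probe 2 passed the background flag on 0 of 12 arrays.

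Prlr, the prolactin receptor gene, was read by a pair of probes that disagreed. Prlr probe 1 gave 5.22, 6.49 and 5.56 in KO epithelium against 4.70, 4.08 and 3.40 in WT epithelium, and every KO value lay above every WT value. In stroma the order was the other way, with 1.43, 3.32 and 1.15 in KO against 3.91, 2.70 and 3.04 in WT, where KO replicate 3 lay within the WT range. Prlr probe 2 was dim and flat, with -0.04 to 0.36 in KO epithelium, -0.25 to 0.96 in WT epithelium, 0.02 to 0.33 in KO stroma and -0.30 to 0.64 in WT stroma. The results on Prlr below rest on probe 1.

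Foxa1 was higher in epithelium than in stroma in all 6 tumours. It gave 2.16, 3.92 and 2.07 in KO epithelium and 0.78, 1.76 and -0.32 in WT epithelium, with no overlap. In KO stroma it gave -1.32, 1.48 and -0.59, of which only the value of replicate 3 was well above background. WT stroma gave -1.17, -1.14 and -1.51, and no array there was well above background.

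Gata3 and Elf5 shared another layout, with KO stroma apart and the other 3 groups overlapping. Over the WT tumours, stroma held 40.65% to 112% of the Gata3 ratio of the same tumour's epithelium, and 35.95% to 92.59% for Elf5. Gata3 gave -0.26, 0.60 and 0.18 in KO stroma against 2.61, 1.40 and 2.08 in WT stroma, and 2.55, 2.97 and 2.90 in KO epithelium against 2.44, 2.18 and 3.38 in WT epithelium. Elf5 gave 4.92, 5.11 and 3.62 in KO stroma against 8.51, 7.27 and 7.01 in WT stroma, and 8.54, 7.89 and 7.62 in KO epithelium against 8.62, 7.77 and 8.48 in WT epithelium. For both genes no KO stroma array overlapped any array of another group, while the other 3 groups overlapped each other. Stat5a in KO stroma also lay below every other array. How many of all probes share this was not counted, while 13.3% had KO below WT on every stroma array. The Elf5 ratio of up to 8.62 reflects the pool as much as the tumour and cannot be set against the level of another gene.

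The STAT5 genes varied less. Stat5a gave 0.27, 0.58 and 0.61 in KO stroma against 1.42, 1.79 and 0.99 in WT stroma, without overlap, and 2.38, 1.85 and 3.09 in KO epithelium against 1.77, 1.40 and 3.15 in WT epithelium. Stat5b probe 1 gave 0.78, 0.84 and 0.60 in KO stroma and 1.31, 1.67 and 0.25 in WT stroma, and probe 2 gave 0.55, 0.76 and 0.53 against 0.97, 1.22 and 0.77. In KO epithelium probe 1 ranged over 1.33 to 1.60 and probe 2 over 1.32 to 1.88, against 0.96 to 1.72 and 0.75 to 1.76 in WT epithelium. WT stroma replicate 3 was the lowest WT stroma array for both probes, below every KO stroma array for probe 1 and just above them for probe 2. Tnfsf11 was well above background only on WT stroma array 2, at 0.82, and lay between -0.21 and 0.29 on the other 11 arrays. On that array the mean over 6 T and NK cell markers was 3.74, against -1.32 to 0.63 on the other 11. Which cells gave the Tnfsf11 signal was not tested.

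**Figure D2:**
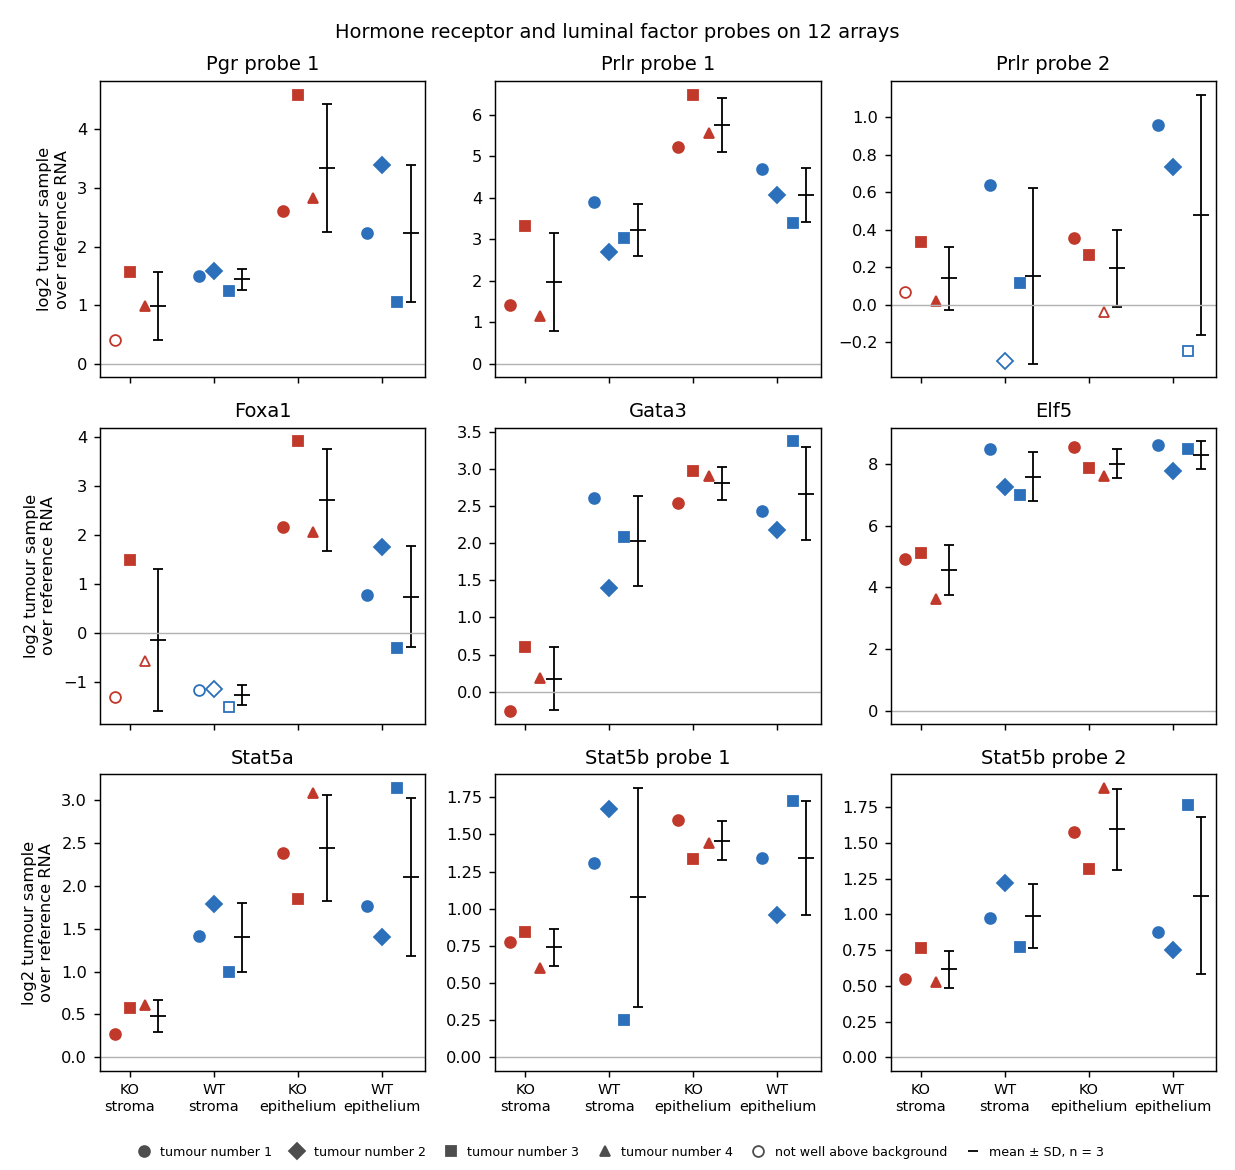
Log2 ratio of tumour sample over reference RNA for the 9 tested probes, by group, with 1 point per array, shape showing the tumour number, open points not well above background, and bars the mean ± SD of 3 arrays. Elf5 and Gata3 are low in KO stroma and overlap among the other groups, whereas Foxa1 is at or below the reference on 5 of 6 stroma arrays.

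Some arrays stood out for groups of these genes. KO tumour 3 had the highest Pgr, Prlr probe 1 and Foxa1 among KO tumours in stroma and in epithelium. WT epithelium replicate 3 had the lowest value of the WT epithelia for the same 3 genes, and the highest for Gata3 (3.38), Stat5a (3.15) and both Stat5b probes (1.72 and 1.76). These are values of single tumours with no test.

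In stroma, Elf5 and Gata3 fell in KO against WT. Over the 9 tested member probes 2 were called, both lower, with limma at an adjusted p below 0.05 over all probes, where 4.32% of all probes were called and 2.46% were called lower. Elf5 averaged 4.55 ± 0.81 in KO stroma and 7.60 ± 0.80 in WT stroma, each ± SD over 3 arrays, which is a log2 difference of -3.05 (SE 0.48, adjusted p = 0.0124) or 8.25-fold. Gata3 averaged 0.18 ± 0.43 in KO stroma and 2.03 ± 0.60 in WT stroma, a log2 difference of -1.85 (SE 0.37, adjusted p = 0.0257) or 3.61-fold. In these bulk samples fewer cells that express a gene and less of its RNA per cell cannot be told apart. The luminal marker means, 0.22 to 1.04 in KO stroma against 1.72 to 2.60 in WT stroma, moved with Elf5 and Gata3, 3 of the 9 measured luminal markers fell and none rose. Milk protein and other secretory markers moved in the same direction, with a mean of 0.88 to 1.64 in KO stroma against 3.06 to 8.01 in WT stroma. Of the 7 measured 2 fell and none rose, with a median log2 difference of -5.49, and Csn2, Csn3 and Csn1s2a were not well above background on any KO stroma array. In epithelium the secretory mean was 1.76 to 5.18 in KO against 3.19 to 7.82 in WT. The median log2 difference there was -2.32 with none called, while Elf5 had -0.28. The part of the luminal and secretory markers in the result was not tested. Fitted on the 6 stroma arrays alone, neither gene passed (adjusted p = 0.0609 for Elf5 and 0.0732 for Gata3), and Gata3 was also lost without KO replicate 1 (0.0874), KO replicate 4 (0.056) or WT replicate 1 (0.0964). Genotype and the row of the slide cannot be told apart, since within each slide the KO arrays lay in 1 row and the WT arrays in the other.

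The other 7 member probes were not called in stroma. Prlr probe 1 had a log2 difference of -1.25 (95% interval -2.57 to 0.06, adjusted p = 0.295), which was -1.93 without KO replicate 3 (adjusted p = 0.0776), and Stat5a one of -0.92 (-1.90 to 0.06, adjusted p = 0.304). Pgr probe 1 had -0.45 (-1.83 to 0.93), both Stat5b probes -0.34 and -0.37, and Prlr probe 2 -0.01 (-0.72 to 0.69). Foxa1 was the exception in sign, at 1.13 (-0.54 to 2.80, adjusted p = 0.48), but it was well above background on KO stroma replicate 3 alone of the 6 stroma arrays, and without that array the difference was 0.32. Without overlap between KO and WT were Gata3, Elf5, Stat5a and Stat5b probe 2, all lower in KO, where 13.3% of all probes had KO below WT on every array. The median over the 9 member probes was -0.45, against -0.02 over all probes.

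In epithelium no member was called between KO and WT. With limma 0 of 27292 probes passed, a background of 0%, and 2249 had an unadjusted p below 0.05, 2 member probes among them. These were Prlr probe 1, with 5.76 ± 0.66 in KO and 4.06 ± 0.65 in WT epithelium (SD, n = 3 each; log2 difference 1.70, 95% interval 0.38 to 3.01, adjusted p = 0.601), and Foxa1, with 2.72 ± 1.05 in KO and 0.74 ± 1.04 in WT epithelium (1.97, 0.30 to 3.65, adjusted p = 0.601). For both genes all KO arrays lay above all WT arrays, as did 7.53% of all probes. Pgr probe 1 had a log2 difference of 1.12 (-0.26 to 2.50). KO replicate 3 carried part of these values, as without it the difference was 0.49 for Pgr probe 1 and 1.37 for Foxa1, and without WT replicate 3 it was 0.53 and 1.44. Elf5 had -0.28 (-1.35 to 0.80), Gata3 0.14 (-0.69 to 0.97) and Stat5a 0.34 (-0.64 to 1.32). The intervals therefore leave room for changes of over 1 log2 unit in Elf5 and Stat5a.

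**Figure D3:**
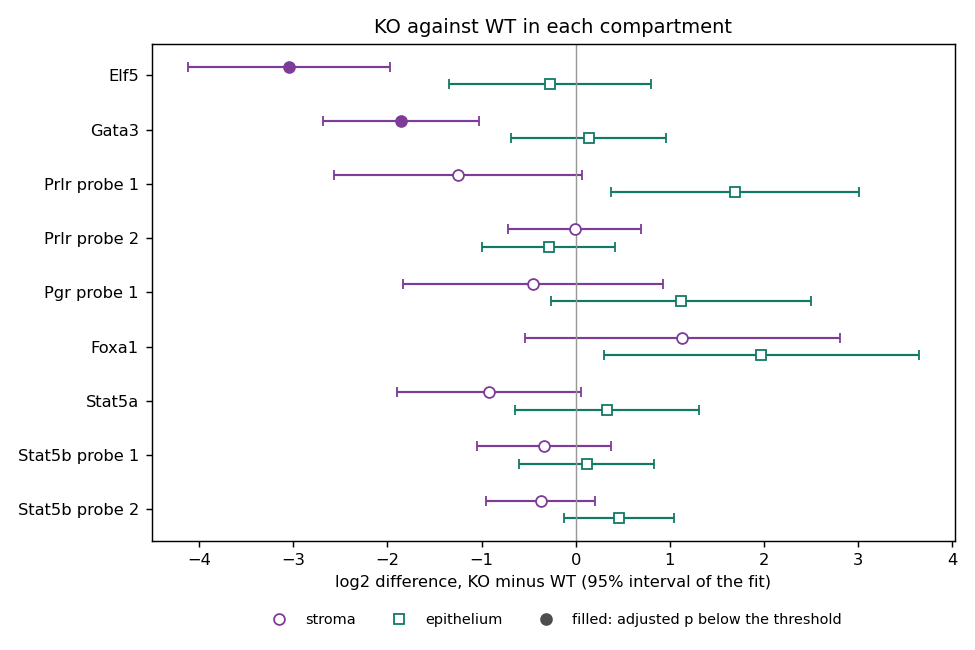
KO minus WT log2 difference of the 9 tested probes with its 95% interval, in stroma (circles, upper of each pair) and in epithelium (squares), filled where the adjusted p was below 0.05. Elf5 (-3.05) and Gata3 (-1.85) in stroma are the filled points, and Prlr probe 1 lies at -1.25 in stroma and 1.70 in epithelium.

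The KO effect in stroma minus that in epithelium was tested within tumours, and no member passed. It was -2.95 for Prlr probe 1 (SE 0.40, adjusted p = 0.0818), -2.77 for Elf5 (SE 0.46, adjusted p = 0.106) and -1.99 for Gata3 (SE 0.39, adjusted p = 0.136). With limma 0 of all probes passed (0%), and 4215 had an unadjusted p below 0.05, among them these and Pgr probe 1 (-1.57, adjusted p = 0.261). A different KO effect in the 2 compartments was therefore not shown for any of these genes.

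Between the compartments of the same tumours, Prlr, Foxa1, Elf5, Gata3 and Pgr fell in stroma against epithelium. Of the 9 member probes 5 were called, all lower, where 8.83% of all probes were called and 4.23% were called lower. The log2 difference was -2.32 for Prlr probe 1 (SE 0.20, adjusted p = 0.00577), -2.44 for Foxa1 (SE 0.25, adjusted p = 0.00621) and -2.08 for Elf5 (SE 0.23, adjusted p = 0.00728). It was -1.63 for Gata3 (SE 0.20, adjusted p = 0.00847) and -1.57 for Pgr probe 1 (SE 0.28, adjusted p = 0.023). Prlr probe 1, Foxa1 and Elf5 were lower in stroma in 6 of 6 tumours, as were 6.26% of all probes. Foxa1 passed the filter through the epithelium and was well above background in stroma only in KO tumour 3. Its difference thus sets signal mostly against values near the floor (adjusted p = 0.00587 with limma without the filter). Stat5a had -1.33 (adjusted p = 0.0597), both Stat5b probes -0.49 and -0.56, and Prlr probe 2 -0.19 (adjusted p = 0.58). The call of Pgr ended without KO tumour 1, 3 or 4 or WT tumour 1 (adjusted p = 0.0636, 0.0691, 0.0531 and 0.0736) and without tumour as a block (0.0539). With Agilent's own processed signals the difference was -4.39 for Foxa1 and -2.49 for Pgr probe 1, both still called. All stroma arrays lay on 1 slide and all epithelium arrays on another, so slide and compartment cannot be told apart.

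Within KO tumours 6 member probes fell in stroma, where 12.9% of all probes were called and 6.91% were called lower. KO stroma held 7.68% ± 3.23 of the Prlr probe 1 ratio of the same tumour's epithelium, 9.66% ± 4.38 of that of Elf5 and 16.3% ± 2.71 of that of Gata3 (SD, n = 3 tumours). For Pgr probe 1 it held 20.7% ± 7.78 and for Stat5a 27.4% ± 12.3. Prlr probe 1, Elf5, Gata3, Foxa1, Pgr probe 1 and Stat5a were lower in stroma in 3 of 3 KO tumours, as were 27.2% of all probes, with log2 differences of -3.79 for Prlr probe 1 (adjusted p = 0.00287), -3.46 for Elf5 (0.00378), -2.63 for Gata3 (0.00461), -2.86 for Foxa1 (0.00636), -2.35 for Pgr probe 1 (0.0151) and -1.96 for Stat5a (0.0437). Foxa1 was well above background in stroma only in KO tumour 3, where stroma held 18.4% of the epithelial ratio, and its stromal level in the other KO tumours is known only as an upper limit. Pgr and Stat5a were lost without any 1 of KO tumours 1, 3 and 4 (adjusted p = 0.0647, 0.0755 and 0.051 for Pgr and 0.166, 0.094 and 0.159 for Stat5a). Stat5a was also lost without WT tumour 1 (0.0756), with Agilent's processed signals (0.0503) and with no filter on dim probes (0.0604). With the processed signals the difference was -4.38 for Foxa1 and -4.03 for Pgr, against -2.86 and -2.35.

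Within WT tumours no member was called. With limma 0 of all probes passed (0%), and 2358 had an unadjusted p below 0.05, among them Prlr probe 1 and Foxa1. WT stroma held 58.1% ± 19.7 of the Prlr probe 1 ratio of its epithelium, 66.4% ± 28.6 for Elf5, 70.3% ± 37.2 for Gata3, 67.6% ± 43.3 for Pgr probe 1 and 77.5% ± 54.4 for Stat5a (SD, n = 3 tumours). Foxa1, Prlr probe 1 and Elf5 were lower in stroma in 3 of 3 WT tumours, as were 16.1% of all probes. The log2 difference of Foxa1 was -2.02 (SE 0.35, unadjusted p = 0.000804, adjusted p = 0.469). No WT stroma array was well above background for Foxa1, so its level there is known only as an upper limit and no share of the epithelial ratio is given.

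**Figure D4:**
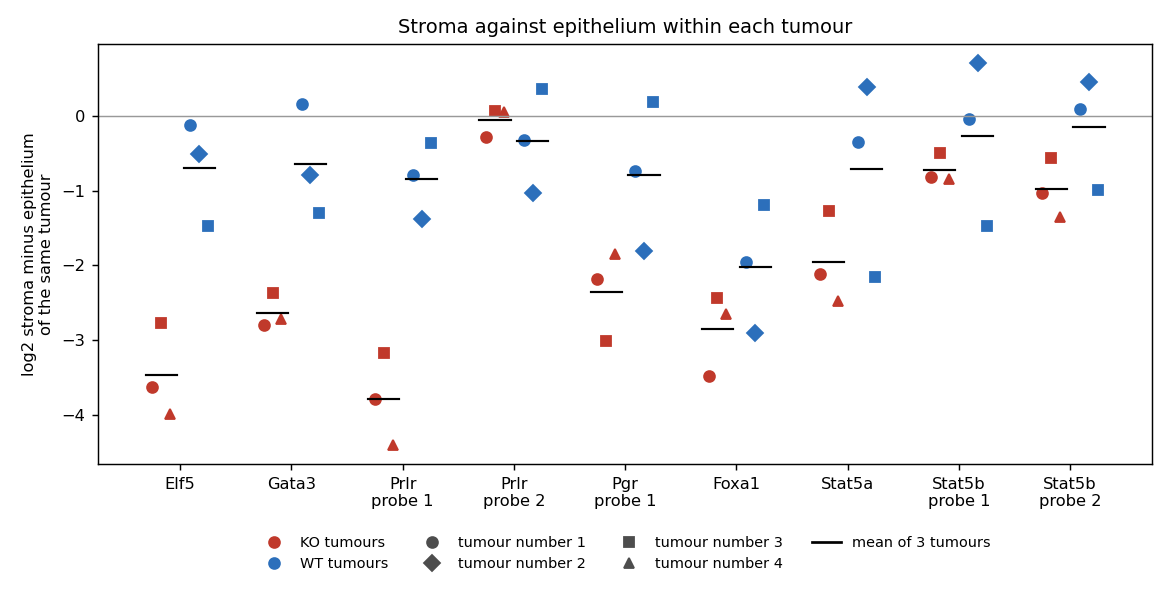
Log2 difference of stroma minus epithelium of the same tumour for the 9 tested probes, with 1 point per tumour, KO left of WT, and a line at the mean of 3 tumours. Means are -3.46 in KO against -0.70 in WT tumours for Elf5, -2.63 against -0.64 for Gata3 and -3.79 against -0.84 for Prlr probe 1. The difference between genotypes was called for no probe, and for Foxa1 the genotypes overlap with all 6 tumours below 0.

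The 4 lists of related genes were read over the brightest kept probe of each gene. Among other luminal transcription factors 4 of 16 measured genes fell in KO against WT stroma and none rose, where 2.46% of all probes were called lower, with a median of -0.81 against -0.02 over all probes. Foxi1, a forkhead factor gene, gave 3.50, 4.16 and 4.13 in KO stroma against 8.65, 7.30 and 7.20 in WT stroma (log2 difference -3.79, SE 0.47, adjusted p = 0.00671). Tfap2c, which encodes an AP-2 factor, gave 2.84, 3.87 and 3.62 in KO stroma against 5.24, 4.73 and 4.67 in WT stroma (-1.43, SE 0.28, adjusted p = 0.0225). Tfap2a, of the same family, had -1.53 (adjusted p = 0.0184), and Grhl2, an epithelial grainyhead factor gene, had -1.52 (adjusted p = 0.0193) but -0.34 with a second probe (adjusted p = 0.55). Of these 4 only Foxi1 was still called on the stroma arrays alone and without each array in turn. Tfap2c was lost without KO replicate 1 (adjusted p = 0.0577), WT replicate 1 (0.0891) or WT replicate 2 (0.0603) and with processed signals (0.0624), Tfap2a without KO replicate 3 (0.0514) or WT replicate 1 (0.0766), and Grhl2 without WT replicate 1 (0.0737). Between compartments 5 of 16 fell in stroma and none rose, where 4.23% of all probes were called lower, with -1.76 for Tfap2c (adjusted p = 0.00577), -1.60 for Tfap2a (0.00966), -1.59 for Foxi1 (0.0106) and -1.03 for Msx2 (0.0178, lost without KO tumour 1, 0.0524, or WT tumour 1, 0.0592, and without the tumour block, 0.121). In KO tumours 6 of 16 fell, where 6.91% of all probes were called lower, and in WT tumours none passed. In epithelium none of the 16 was called between KO and WT, and the smallest p belonged to Tfap2c (0.89, adjusted p = 0.601) and Msx2 (1.27, adjusted p = 0.601).

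Of the genes of prolactin and STAT5 signalling 12 of 15 were measured. In KO against WT stroma 1 fell and none rose, where 4.32% of all probes were called, and a single call does not set the list apart. This was Cish, a STAT5 target that feeds back on the pathway, with 0.20, -0.21 and 0.89 in KO stroma against 1.95, 1.84 and 1.54 in WT stroma (log2 difference -1.48, SE 0.28, adjusted p = 0.0211, and 0.0779 on the stroma arrays alone). The call of Cish also ended without KO replicate 1 or 3 or WT replicate 1 or 2 (0.0545 to 0.0848). Between compartments 2 rose and 1 fell in stroma, where 4.6% of all probes were called higher and 4.23% lower. Igf1, an insulin-like growth factor gene (2.96, adjusted p = 0.0114), and Socs1, an inhibitor of JAK kinases (1.09, adjusted p = 0.0451), were higher and Id2, a helix-loop-helix regulator, lower (-0.998, adjusted p = 0.023). A further 2 Igf1 probes gave 2.22 and 2.57, and another gave -0.03. The call of Socs1 ended without any 1 of KO tumours 1, 3 and 4 or WT tumours 1 and 2 (adjusted p = 0.0663 to 0.12), with processed signals (0.0697) and with no filter (0.0572), and that of Id2 without any 1 of KO tumours 1, 3 and 4 or WT tumour 1 (0.051 to 0.0653). In KO tumours 3 of the 12 rose and 2 fell in stroma, where 5.97% of all probes were called higher and 6.91% lower, and in WT tumours none was called. In epithelium none of the 12 was called between KO and WT, Ptpn11 (0.65) and Jak2 (0.35) having the smallest p (adjusted p = 0.601 and 0.612).

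Of the genes that respond to oestrogen and progesterone or carry their paracrine signals 17 of 19 were measured, and in KO against WT stroma 1 rose and 2 fell, where 1.86% of all probes were called higher and 2.46% lower. Igfbp5, an IGF-binding protein gene, gave 5.23, 5.70 and 5.57 in KO stroma against 8.27, 7.05 and 7.16 in WT stroma (log2 difference -1.99, SE 0.37, adjusted p = 0.021). Ccnd1, the cyclin D1 gene, had -1.03 (adjusted p = 0.0309). Igfbp4, another IGF-binding protein gene, gave 2.23, 1.55 and 1.47 in KO stroma against 0.75, -0.06 and 0.31 in WT stroma, where only the first was well above background (1.41, adjusted p = 0.021). None of these 3 passed on the stroma arrays alone. Igfbp5 was also lost without KO or WT replicate 1 (adjusted p = 0.0732 and 0.0688), Igfbp4 without KO replicate 1 (0.0648) or WT replicate 2 (0.0719) and with processed signals (2.58, 0.075), and Ccnd1 without any 1 stroma array except WT replicate 3 (0.0596 to 0.105). The same 3 genes passed between compartments, where 8.83% of all probes were called, at -1.05 for Igfbp5 (adjusted p = 0.0095), -1.01 for Ccnd1 (0.00774) and 1.13 for Igfbp4 (0.01), and with Agilent's processed signals Igfbp4 had 2.90. In epithelium Igfbp4 was well above background only on KO arrays 1 and 3, so its difference rests largely on values near the floor. In KO tumours 2 of the 17 rose and 3 fell in stroma (5.97% and 6.91% of all probes), and in WT tumours none passed. In epithelium none of the 17 passed between KO and WT. Ccnd1 had 0.55 (adjusted p = 0.601) and Cited1, a transcriptional coregulator gene, 3.06 (adjusted p = 0.65), a difference that shrank to 0.96 when WT replicate 3 was left out and reached 4.12 when WT replicate 1 was.

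All 14 genes of the list of steroid receptors and coregulators were measured, and with all 12 arrays none passed in any comparison. In KO against WT stroma the smallest p belonged to Fkbp4, a steroid receptor chaperone gene (-1.06, adjusted p = 0.0956), and Esr2, the oestrogen receptor beta gene (-0.79, adjusted p = 0.118). Fkbp4 was called without WT replicate 3, in KO against WT stroma (-1.34, adjusted p = 0.046) and between the compartments of KO tumours (-1.08, adjusted p = 0.0484). In epithelium Ncoa2, which encodes a coactivator of nuclear receptors, had a log2 difference of 0.80 (adjusted p = 0.599).

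For the brightest probe of each tested member, the 3 named genes of most similar pattern were taken by Pearson's r over the 12 arrays. These arrays fall into 4 groups and share 6 tumours, so r describes likeness only. Nearest to Pgr were Tfap2b (r = 0.956), Gtf2i (0.945) and Msx2 (0.94), and nearest to Foxa1 were Fam25c (0.954), Cited1 (0.915) and Msx2 (0.909). Nearest to Prlr were Lmo1 (0.957), Zfp664 (0.937) and Tfap2c (0.924). For Gata3 they were Sh3yl1 (0.983), Tjp1 (0.975) and Cldn8 (0.973), and for Elf5 Crabp2 (0.98), Plet1 (0.975) and Irx2 (0.975). Stat5a was nearest to Ppp2r5c (0.944), Ccdc160 (0.941) and Wdr26 (0.93), and Stat5b to Padi4 (0.894), Bcas2 (0.893) and 2810004N23Rik (0.883).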

How the data were processed

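RNA of 12 laser-captured samples was measured on 2-colour Agilent arrays, with Cy3 for the tumour sample and Cy5 for the reference and no dye swap, per the labels. The deposited intensity values are spot and local background medians and Agilent's processed signals from Feature Extraction 10.7.3.1, per the file headers. The deposited log2 value table ran as reference over sample for its 6 epithelial columns (r between -0.903 and -0.869 with the ratios used here, medians -0.03 to 0.03), and served as an alternative with its sign turned. Its 6 stromal columns matched no array, so their scale, centring and direction stay unknown and they were not used.

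Median signals were background-corrected by normexp (offset 50). Loess was run per array with its 3671 control spots given weight 0, and ratios were expressed as sample over reference. Non-uniform spots were set missing (211 on WT epithelium replicate 3, at most 16 elsewhere) and spots of a probe averaged. Accessions matched a RefSeq gene table of GRCm38.p6 for 27235 of 55681 probes (20660 genes). The headers name another build, so promoter coordinates belong to RefSeq alone. Tests used limma 3.58.1 (R 4.3.3), with Benjamini-Hochberg adjustment over 27292 probes. KO against WT used the 4 group means of all 12 arrays. Stroma against epithelium and the difference of KO effects used tumour as a fixed block, since the titles number both compartments of a tumour alike. Deviations from group means correlated at 0.105 to 0.462 between the compartments of a tumour, above any other stroma of the group. As deviations within a group cancel out, a high value for a tumour's own stroma lowers the others, so this order adds little to the titles. A check on simulated data with known changes covered only the mean size of the recovered change, and not the rate of false calls. All probes of the members were named, with up to 4 called genes of each list, or the 2 of smallest p, and 1 gene that this rule takes is not reported here. Members, lists and tests were chosen with earlier results of these data known. The number of arrays limits the precision. Alternatives were Agilent's processed signals, other filters, the brightest probe per gene, Aquantile scaling, array weights, the tumour block, arrays of 1 compartment, the deposited table and leaving out each replicate.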

Additional observations from a re-analysis of the deposited data

How the results depend on the processing

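Over 16 alternative settings 114 differences of single genes gave 1398 values with direction and side of the threshold kept, 74 that lost the call, 8 that gained it and 16 that changed sign. The sign changes were all of uncalled members, and the lowest and highest values beside them are over leaving out 1 replicate in turn. For Prlr probe 2 in KO against WT stroma they were 0.0729 with processed signals, 0.0244 without KO replicate 1, 0.0493 without KO replicate 4 and 0.2312 without WT replicate 1 (lowest -0.2361, without WT replicate 2). For the same probe between compartments they were 0.0624 in KO tumours without KO replicate 1 (lowest -0.1126), 0.0233 in WT tumours without WT replicate 2 (lowest -0.6751) and -0.0764 for the difference of KO effects without WT replicate 2 (highest 0.6219), while processed signals gave -0.3212, -1.3996 and 1.0784 for these 3. Foxa1 had 0.0312 for that difference with processed signals and Stat5b probe 1 had 0.0368 without WT replicate 2 (lowest -1.0555). In epithelium without WT replicate 2, Gata3 had -0.1028, Stat5a -0.015 and Stat5b probe 1 -0.0765 (highest 0.4943, 0.858 and 0.3076, without WT replicate 3). In WT tumours without WT replicate 3, Stat5a had 0.0247, Stat5b probe 1 0.3396 and Stat5b probe 2 0.281 (lowest -1.2492, -0.7527 and -0.4486, without WT replicate 2), and the last had 0.0293 with array weights. The cause was not tested.

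Processed signals called 1541 probes between compartments and 1 for the difference of KO effects. That difference had 18 calls with no filter, 85 with array weights and 17 with no replicate block, against 0. WT tumours had 1 call with no filter, with the brightest probe per gene and with array weights. KO against WT epithelium had 1 with the brightest probe, with array weights and with the replicate block (tumour, random; correlation 0.199). The 6 stroma arrays alone called 147 probes and 0 members in KO against WT stroma. This setting has fewer arrays and takes the spread from stroma only, and which of these lowered the count was not tested. A filter on all 12 arrays left 3 members called between compartments, as Foxa1 and Pgr then had no tested probe. The replicate block changed no other call of a member beside those given for Pgr, Stat5a between compartments (adjusted p = 0.0276 with no replicate block) and Stat5b probe 2 in KO tumours (0.0363). Stat5a between compartments was also called with the brightest probe per gene (0.0443), and Stat5b probe 2 in KO tumours without WT replicate 3 (0.0326). Without 1 replicate, calls numbered 0 to 1 in KO against WT epithelium, 217 to 1254 in stroma (1 to 2 members), 964 to 1514 between compartments (4 to 5 members), 1076 to 3621 in KO tumours (4 to 7 members), and 0 in WT tumours and for the difference of KO effects. The lowest stromal count, 217, came without WT replicate 1. Probes not well above background limit Esr1, Tnfsf11 and Foxa1 in stroma.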
